A study of Homo sapiens with 2 samples.

Results

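The genes described here encode 10 Krüppel-like factors other than KLF1, and were chosen by name: KLF2, KLF3, KLF4, KLF6, KLF9, KLF10, KLF11, KLF12, KLF13 and KLF16, 10 of the 25702 genes counted. Their symbols were matched in the authors' deposited comparison table and joined to the counts by Entrez ID, and all 10 were found. RNA was sequenced from K562, a human erythroid leukemia line that carries the BCR-ABL1 fusion, grown asynchronously in RPMI with 10% serum. One culture had 1 µM cabozantinib (XL184), a multi-kinase inhibitor, for 48 h, and the other had the DMSO vehicle for 48 h. Each condition has 1 library of a single cell line, so the differences have no replicate check, the conditions could not be tested against each other, and every interval covers counting error only.

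Krüppel-like factors are transcription factors that share a C-terminal block of C2H2 zinc fingers, with which they bind CACCC boxes and related GC-rich elements, and they differ in what lies before the fingers. KLF2, KLF4 and KLF6 carry activation domains. KLF3 and KLF12 recruit the corepressor CtBP, and KLF9, KLF10, KLF11, KLF13 and KLF16 can recruit the SIN3A corepressor with its histone deacetylases. In red cell precursors KLF1 activates globin and other erythroid genes through CACCC boxes, and KLF3, itself a target of KLF1, occupies many of the same sites as a repressor.

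With cabozantinib, KLF6 was 2.17-fold lower, KLF9 was 1.52-fold lower and KLF13 was 1.64-fold higher. KLF3, the most abundant of the 10, and KLF16 had ratios of 1.22 and 1.28, short of the size called here, and KLF10 and KLF11 had ratios of 0.983 and 1.12. KLF2, KLF4 and KLF12 were at or near the limit of detection in both libraries. A gene was called higher or lower at 1.5-fold or more, a log2 ratio of at least 0.58 either way, when the exact 95% interval of the ratio of its counts also left out no change. Of the 10 genes, 7 had at least 1 CPM (a gene's count for each 1000000 counts of the scaled library) in both libraries and 3 were below it in both. By this rule 1 was higher and 2 were lower, against 8.15% higher and 12.3% lower of all 12536 genes measured, meaning that 1 library or both reached 1 CPM. Of the 11921 genes at 1 CPM or more in both libraries, as these 7 are, 7.39% were higher and 10.8% lower. That second background was added after seeing the data. With scaling by total counts the background over the 12536 genes was 6.05% higher and 14.6% lower. The median log2 ratio of the 7 was 0.16, beside 0.01 for all measured genes.

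The promoters of the 3 genes called are shown because these are the members called higher or lower. Each window is the 250 bases before the RefSeq start on GRCh38.p14, read 5′ to 3′ along the gene's strand. Capitals mark a CACCC box (CACCC or its complement GGGTG) or a GC box (GGGCGG or CCGCCC). KLF6 lies on the minus strand at chr10:3785210-3785459, KLF9 on the minus strand at chr9:70414658-70414907, and KLF13 on the plus strand at chr15:31326585-31326834.
KLF6: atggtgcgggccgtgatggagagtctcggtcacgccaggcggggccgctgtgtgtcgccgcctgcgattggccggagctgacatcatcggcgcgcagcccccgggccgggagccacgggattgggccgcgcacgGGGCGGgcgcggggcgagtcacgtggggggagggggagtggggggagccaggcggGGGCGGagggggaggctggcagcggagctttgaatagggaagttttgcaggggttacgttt
KLF9: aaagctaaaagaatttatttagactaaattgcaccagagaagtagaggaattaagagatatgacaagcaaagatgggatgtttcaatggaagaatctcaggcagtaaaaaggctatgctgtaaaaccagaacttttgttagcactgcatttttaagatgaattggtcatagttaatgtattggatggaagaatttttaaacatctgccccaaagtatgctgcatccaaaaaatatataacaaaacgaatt
KLF13: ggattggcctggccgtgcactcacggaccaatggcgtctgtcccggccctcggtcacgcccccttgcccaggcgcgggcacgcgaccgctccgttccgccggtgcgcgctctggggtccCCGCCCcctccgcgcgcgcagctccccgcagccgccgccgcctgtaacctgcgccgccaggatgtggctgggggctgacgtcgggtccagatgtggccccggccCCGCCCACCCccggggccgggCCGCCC

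The KLF6 window held 2 GC boxes and no CACCC box, and the KLF13 window held 3 GC boxes and 1 CACCC box, which overlapped a GC box. The KLF9 window held neither, and was 32.4% G and C, beside 72.4% for KLF6, 78.8% for KLF13 and a median of 58.0% over 35116 windows of the same length. Among those windows 54.7% held a CACCC box and 42.6% a GC box. RefSeq entries were matched for 8 of the 10 genes, in 12 windows; KLF3 and KLF10 had no entry in the table. The KLF16 window, at 86.4% G and C the highest of the 12, held 7 GC boxes, where 95% of all windows held 4 or fewer. That comparison does not allow for base composition. The palindrome CACGTG, an E-box held by 6.34% of windows, was found once each upstream of KLF6, KLF4 and 1 of 2 KLF11 starts. The KLF12 starts differed: 2 of the 4 windows held 5 CACCC boxes each, and another held 1 GATA site (AGATAA, in 9.17% of windows) and 1 C/EBP-ATF element (TGATGNAA, in 3.14%), which no other window of these genes held. The STAT site TTCNNNGAA, in 6.57% of all windows, was in none of the 12. Both strands were searched for every motif, and a match is a description of the letters only.

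**Figure D1:**
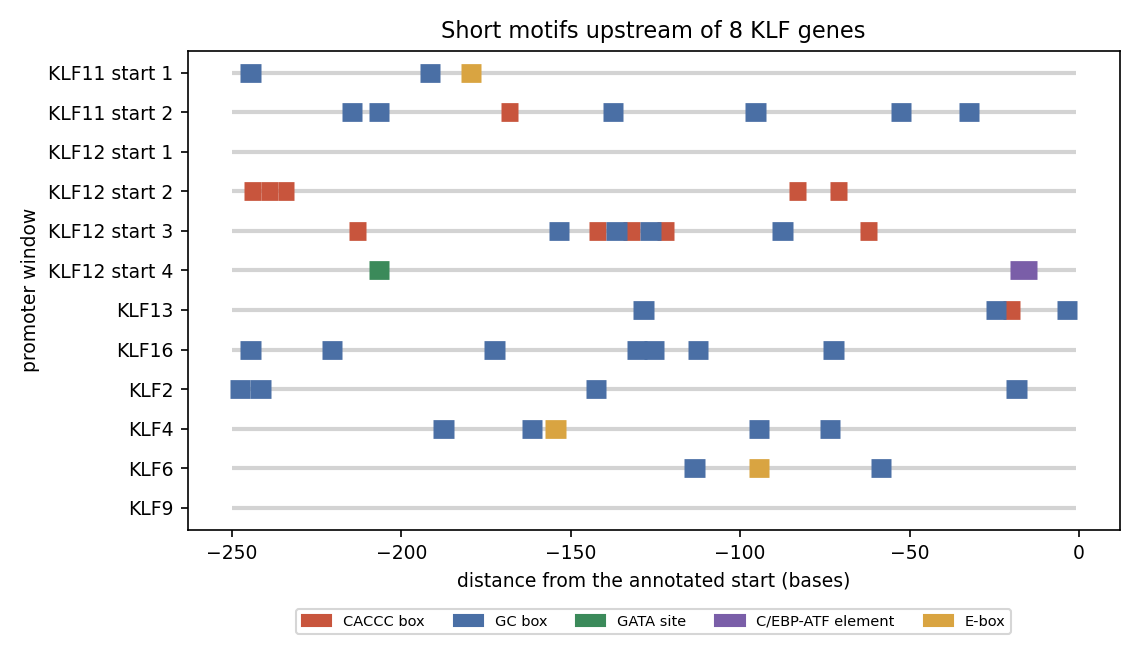
Motif matches in the 250 bases upstream of 12 annotated starts of 8 KLF genes, with the distance from the start on the horizontal axis and 1 window a line. Coloured blocks are matches on either strand; Starts of 1 gene are numbered by rising coordinate; the lines KLF9 and KLF12 start 1 hold no match, and KLF16 holds 7 GC boxes.

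Labels and counts of the line were checked first. The DMSO library held 25025243 counts and the cabozantinib library 25505289. All 11 genes chosen to mark K562, among them GATA1, TAL1, the fetal and embryonic globins and both partners of the fusion, were above 1 CPM, and CDKN2A, CDKN2B and MTAP, which K562 is known to lack, had 0 counts in both libraries. Of the 11 K562 genes 8 were called higher with cabozantinib and 0 lower (median log2 ratio 1.16). Their summed level went from 13856 to 37970 CPM. Summed levels of markers of other cell types were lower with cabozantinib. The 6 lymphocyte markers, led by PTPRC, went from 128 to 48.0 CPM, with MS4A1 at 0 in both libraries. The 6 monocyte and granulocyte markers went from 16.9 to 9.04 CPM, with MPO, ELANE and FCN1 at 0 in both, and the 8 fibroblast and epithelial markers, led by KRT18, from 599 to 482 CPM, with LUM at 0 in both. In that list KRT8 and KRT18 were at lower levels with cabozantinib, while KRT19 went from 63.4 to 87.7 CPM and EPCAM from 70.4 to 86.1 CPM. Of the measured members of these lists 3 of 3, 1 of 1 and 2 of 6 were called lower and none higher. Both cultures are of 1 cell line, so these values are levels in K562 cultures and are not read as amounts of other cell types. Fewer expressing K562 cells and less RNA per cell cannot be told apart in such libraries. The part of these shifts in the KLF values was not tested.

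KLF6 (Entrez 1316), an activator first known for its early response to injury and growth stimuli, lies on hg19 chromosome 10 at 3818188 to 3827473 with 4 exons. It had 1477 counts in DMSO and 654 with cabozantinib, or 57.3 and 26.4 CPM. The log2 ratio was -1.12 (95% counting interval -1.25 to -0.98), a lower level than in DMSO by 2.17-fold (1.98 to 2.38). Of all genes at 1 CPM or more, 4.62% had a lower ratio. KLF6 was the only one of the 10 with a posterior probability of differential expression above 0.95 in the authors' deposited table, at 0.999, where 4.66% of the 17392 genes reached 0.95. With 1 library per condition, that probability is no replicate check and cannot measure variation between cultures. The per-length level of KLF6 was at the 54.3 percentile of measured genes in DMSO and at the 35.3 percentile with cabozantinib.

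The other activators were barely detected. KLF4 (chromosome 9, 110247133 to 110252047), known for its use in reprogramming cells to pluripotency, had 16 counts in DMSO and 9 with cabozantinib, and the interval of its log2 ratio of -0.74 ran from -2.13 to 0.49. KLF2 (chromosome 19, 16435651 to 16438345), a factor of quiescent lymphocytes and endothelium, had 3 and 4 counts, with an interval from -2.09 to 3.24. A difference in either gene was not detectable at this depth. KLF6 supplied nearly all counts of the activator group, whose sum went from 1496 to 667 counts.

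**Figure D2:**
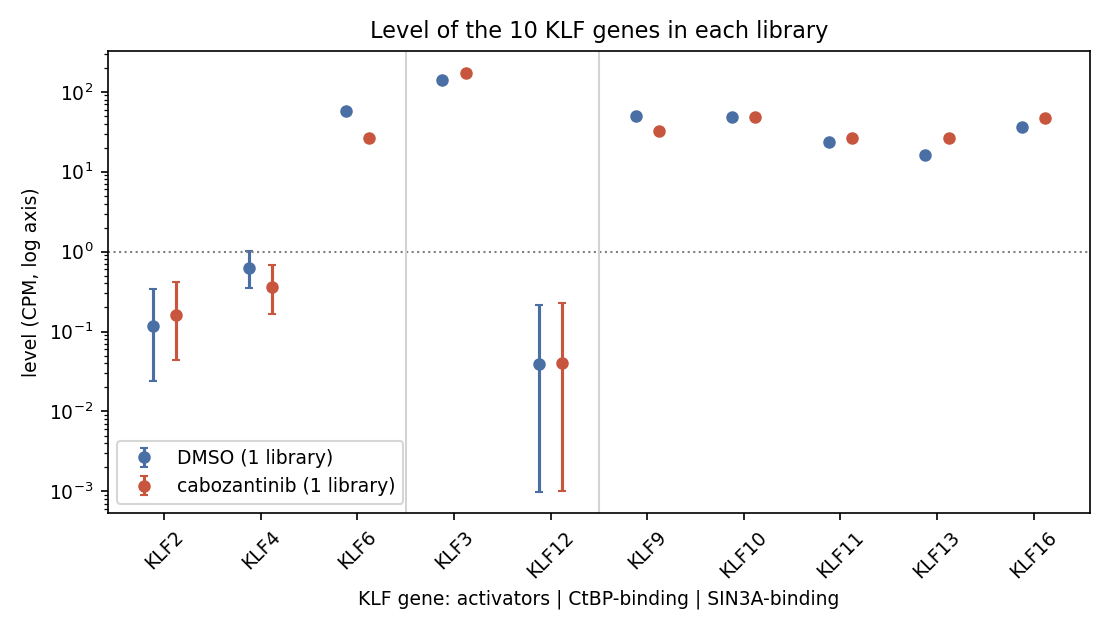
Level of each of the 10 KLF genes in CPM (log axis) in the DMSO and the cabozantinib library, grouped by class; bars are exact Poisson 95% intervals of the counts and the dotted line is 1 CPM. KLF6 and KLF9 sit lower and KLF13 higher with cabozantinib, and KLF2, KLF4 and KLF12 lie below the line with overlapping intervals.

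Among the CtBP-binding factors, KLF3 (Entrez 51274, chromosome 4, 38665790 to 38703129, 6 exons) was the most abundant of the 10 in both libraries. It had 3651 counts in DMSO and 4285 with cabozantinib, or 142 and 173 CPM. Its log2 ratio of 0.29 (0.22 to 0.35), 1.22-fold higher, was short of the 1.5-fold size although the counting interval left out no change. KLF3 overlaps the antisense gene KLF3-AS1 on the opposite strand, which had 27 and 18 counts. The strand setting of the counting was not stated in the labels or headers, and those counts are few beside those of KLF3. KLF12 (chromosome 13, 74260149 to 74708066), the relative of KLF3 that also binds CtBP, had 1 count in each library, so no ratio is given.

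KLF1, the erythroid activator that shares its sites with KLF3, had 3217 and 7165 counts, 2.32-fold higher (2.22 to 2.42). Per kilobase of exon, KLF1 had 3.06 times the level of KLF3 in DMSO and 5.81 times with cabozantinib. The ratio of KLF1 to KLF3 counts was 1.90 times as high with cabozantinib (exact 95% interval 1.79 to 2.02). This ratio is taken within each library and does not depend on how the libraries were scaled.

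The SIN3A-binding factors went in both directions, and their summed counts of 4512 and 4472 gave a log2 ratio of 0.04 (-0.02 to 0.10). KLF9 (Entrez 687, chromosome 9, 72999513 to 73029573, 2 exons), a factor induced by glucocorticoid and thyroid hormone, had 1274 counts in DMSO and 803 with cabozantinib, or 49.4 and 32.4 CPM. The log2 ratio was -0.61 (-0.74 to -0.48), 1.52-fold lower (1.40 to 1.67), just past the 1.5-fold size, and 12.2% of measured genes had a lower ratio. KLF13 (Entrez 51621, chromosome 15, 31619083 to 31670102, 2 exons), known as a regulator of the chemokine CCL5 in T cells, had 417 counts in DMSO and 659 with cabozantinib, or 16.2 and 26.6 CPM. Its log2 ratio was 0.72 (0.54 to 0.90), 1.64-fold higher (1.45 to 1.86), and 94.4% of measured genes had a lower ratio. The counting intervals of both folds reached below 1.5-fold. The authors' deposited table gave KLF9 a posterior probability of 0.163 and KLF13 one of 0.369, both short of 0.95. The shrunken ratios there, 0.652 for KLF9 and 1.63 for KLF13, follow the same counts, so their same direction is no separate support.

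KLF9 and KLF13 are close relatives, so their balance within a library was also taken. Per kilobase of exon, KLF9 had 3.99 times the level of KLF13 in DMSO and 1.59 times with cabozantinib. The ratio of KLF9 to KLF13 counts was 2.51 times lower with cabozantinib (exact 95% interval 2.15 to 2.93). The pair was chosen with both values known, so this is a description.

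KLF10 and KLF11, both early response genes of TGF-beta, differed little between the libraries. KLF10 (Entrez 7071, chromosome 8, 103661005 to 103667983) had 1263 counts under DMSO and 1193 under cabozantinib, and its log2 ratio was -0.03 (-0.14 to 0.09). KLF11 (Entrez 8462, chromosome 2, 10183682 to 10194963) had 611 and 655 counts, a log2 ratio of 0.16 (-0.00 to 0.32). Both intervals lay inside 1.5-fold either way, and both included no change. The ratio of KLF10 to KLF11 counts with cabozantinib was 0.881 of that in DMSO, with an exact interval from 0.767 to 1.01. KLF16 (Entrez 83855, chromosome 19, 1852398 to 1863564) had 947 and 1162 counts, or 36.8 and 46.9 CPM, a log2 ratio of 0.35 (0.23 to 0.48) that stayed inside 1.5-fold.

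**Figure D3:**
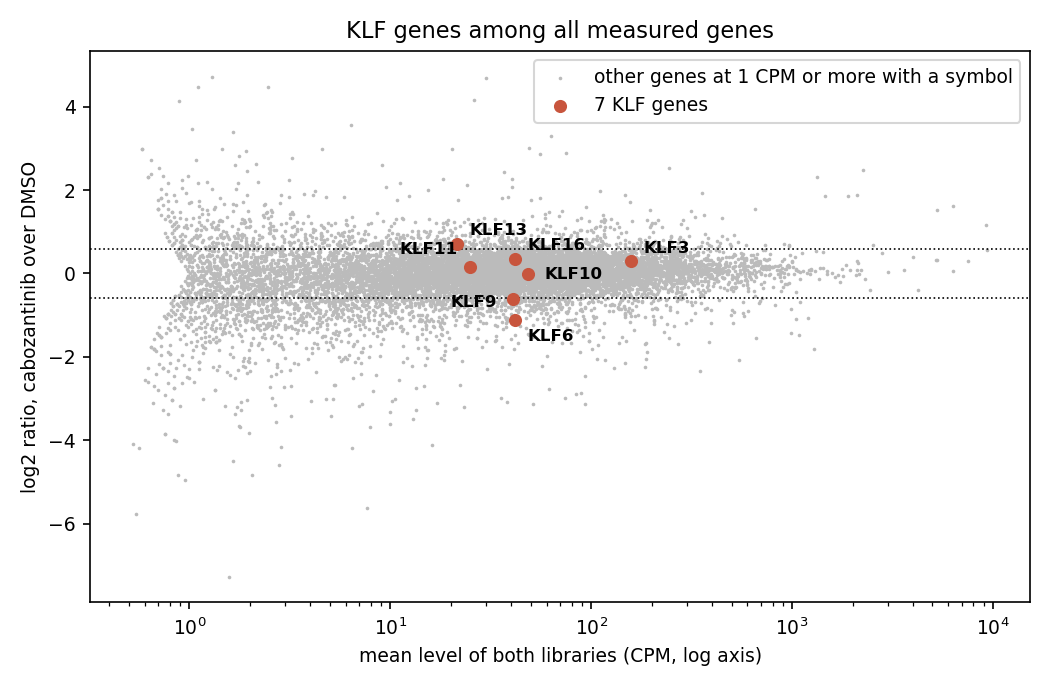
Log2 ratio of cabozantinib over DMSO against the mean CPM of both libraries (log axis) for genes at 1 CPM or more; grey points are other genes with a symbol, red points the 7 measured KLF genes, and dotted lines 1.5-fold. KLF6 at -1.12 and KLF9 at -0.61 lie below the lower line and KLF13 at 0.72 above the upper one.

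Because the genes differ in length, from 1655 exonic bases for KLF2 to 10909 for KLF12, the order of their levels was taken as CPM per kilobase. In DMSO the order was KLF3 at 25.2, KLF10 at 14.3, KLF16 at 12.7, KLF6 at 12.3, KLF9 at 9.49, KLF11 at 5.52 and KLF13 at 2.38. The counting intervals of KLF10 and KLF16 overlapped, as did those of KLF16 and KLF6, so these neighbours are not separated. With cabozantinib the order was KLF3 at 30.8, KLF16 at 16.2, KLF10 at 14.1, KLF9 at 6.22, KLF11 at 6.16, KLF6 at 5.66 and KLF13 at 3.91. There KLF9, KLF11 and KLF6 were neighbours with overlapping intervals. KLF6 thus went from the fourth place to the sixth, and KLF3 and KLF13 held the first and the seventh in both. KLF4, KLF2 and KLF12 came last in both libraries, at 0.212 per kilobase or less.

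The sum over all 10 genes was nearly the same, 375 CPM in DMSO and 380.5 CPM with cabozantinib (log2 ratio 0.02, -0.02 to 0.06), while its makeup differed. KLF3 held 37.8% of the 10 genes' counts in DMSO (exact binomial 95% interval 36.8% to 38.8%) and 45.5% with cabozantinib (44.5% to 46.5%). The share of KLF6 was 15.3% (14.6% to 16.0%) and 6.94% (6.43% to 7.47%). KLF9 held 13.2% and 8.52%, and KLF13 4.32% and 6.99%. KLF10 held 13.1% and 12.7%, with overlapping intervals.

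Of 7 other KLF genes 3 were measured, and KLF1 was the 1 called. KLF5 had 37 and 29 counts, and KLF15, a regulator of metabolism in muscle and liver, had 208 and 184 counts, a log2 ratio of -0.12 (-0.41 to 0.17). KLF7, KLF8, KLF14 and KLF17 had 0 counts in DMSO, which allows up to 3, and 2, 4, 1 and 1 counts with cabozantinib. Of the 9 SP factors, which have the same kind of zinc fingers and bind GC boxes, 6 were measured and 0 were called either way. Over all measured genes 8.15% were higher and 12.3% lower, so sets this small do not set the SP factors apart from the KLF genes. SP1 had 166 and 184 CPM and SP3 140 and 143 CPM, and SP4 had the largest ratio of the 6, a log2 ratio of 0.46 (0.25 to 0.67). The median log2 ratio of the 6 was 0.10.

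**Figure D4:**
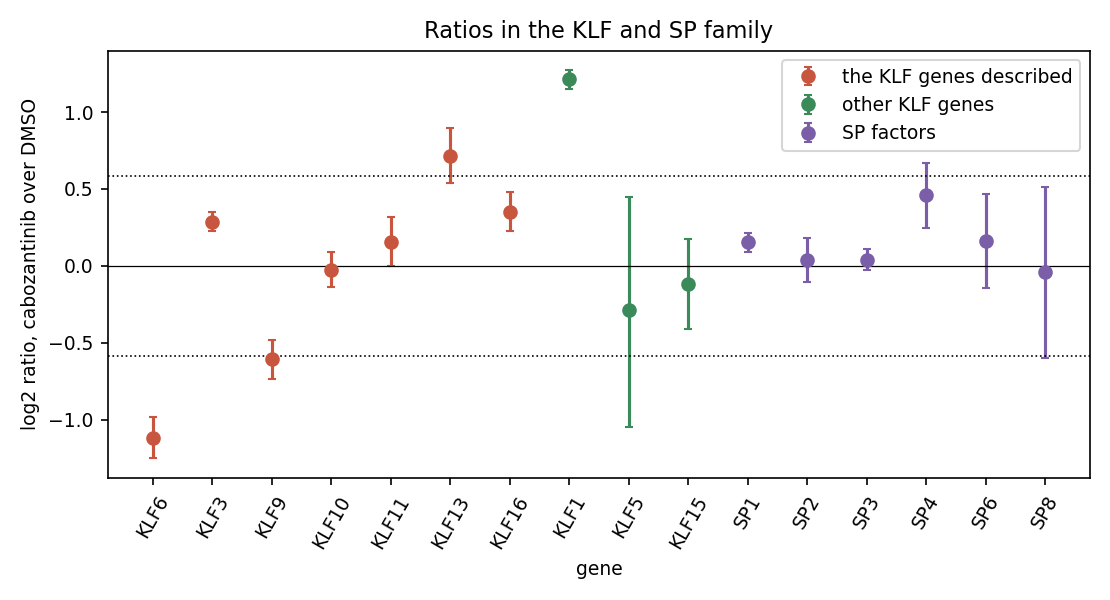
Log2 ratio of cabozantinib over DMSO with its exact 95% counting interval for 7 measured KLF genes described here, 3 other KLF genes and 6 SP factors; dotted lines are 1.5-fold. KLF1, KLF13, KLF9 and KLF6 lie past a line, and the SP factors lie between -0.04 and 0.46.

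Genes that act with the KLF factors were taken from lists of known partners. The counts of called genes in these lists, which hold 2 to 14 measured genes each, stand beside the shares of 8.15% higher and 12.3% lower over all measured genes, and nothing is called particular to a list. Of 9 genes of the CtBP complex and KLF3 partners, 1 was higher and 1 lower (median log2 ratio 0.13). CTBP1, the corepressor itself, had 140 and 134 CPM (log2 ratio -0.07), and CTBP2 had 27 and 31 counts. RCOR1, the scaffold that joins the demethylase KDM1A to deacetylases, had 5077 and 2990 counts, 1.63-fold lower (1.56 to 1.71), and the histone methyltransferase EHMT2 was 1.56-fold higher (1.40 to 1.75). FHL3, a LIM protein known to bind KLF3, had a log2 ratio of -0.53, inside the 1.5-fold size. Of 14 genes of the SIN3 complex 0 were called either way (median 0.19). SIN3A had 85.5 and 94.3 CPM and SIN3B 48.6 and 47.2 CPM. HDAC1, which is on both lists, had the highest log2 ratio of this set at 0.55. Of 6 coactivators 2 were higher and 0 lower (median 0.29): the acetyltransferases KAT2B, 1.81-fold (1.69 to 1.94), and KAT2A, 1.51-fold (1.33 to 1.71).

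Lists of known upstream pathways were measured in the same way. Of 10 genes of the MEK5, ERK5 and MEF2 route, which induces KLF2 and KLF4 in endothelium, 0 were higher and 1 lower (median log2 ratio -0.11). The lower gene was MAP2K5, which encodes MEK5, from 41.8 to 27.4 CPM, 1.53-fold (1.39 to 1.68). Of 11 measured TGF-beta genes 0 were higher and 2 lower (median -0.26). Both lower genes reached 1 CPM only in DMSO, where they are high, so the filter favoured that call; over the 9 genes at 1 CPM in both libraries 0 were called (median -0.15). SMAD7, an inhibitor of the pathway, had 60 and 12 counts, 4.65-fold lower (2.56 to 9.82). The receptor gene TGFBR2, with 27 and 9 counts, averaged under 1 CPM and was named after its values were seen. Of 7 measured glucocorticoid and thyroid response genes 2 were higher and 2 lower (median 0.03). Over the 6 of them at 1 CPM in both libraries 2 were higher and 1 lower (median 0.07). The thyroid hormone receptor gene THRA was 1.68-fold higher (1.54 to 1.84) and THRB 2.20-fold lower (1.89 to 2.57). DUSP1, a phosphatase of MAP kinases, was 2.17-fold higher (1.88 to 2.50), and TSC22D3, which encodes the glucocorticoid-induced protein GILZ, had 83 and 18 counts, 4.34-fold lower (2.64 to 7.84), and reached 1 CPM in DMSO alone. The glucocorticoid receptor gene NR3C1 had 50.8 and 51.7 CPM.

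Of 8 measured ubiquitin ligase genes that act on KLF proteins, 0 were higher and 1 lower (median log2 ratio -0.05). The lower gene was VHL, from 273 to 135 CPM, 2.02-fold (1.94 to 2.11). WWP1, a ligase of KLF2 and KLF5, had a log2 ratio of 0.11 (-0.02 to 0.25). Protein levels were not measured.

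Genes known elsewhere as targets were called in both directions. The KLF2 list and the list of KLF4 and KLF6 targets do not separate genes that a factor raises from genes that it lowers. Their counts and medians therefore have no expected direction. Of 5 measured KLF2 targets 2 were higher and 0 lower (median log2 ratio -0.19), and KLF2 itself had 3 and 4 counts. NOS3 (log2 ratio -0.53), TXNIP (-0.19) and ITGB7 (-0.28, interval -0.91 to 0.33) had ratios below no change but inside 1.5-fold. CCR7, a chemokine receptor, had 4 and 47 counts, 11.0-fold higher (4.47 to 46.7), and THBD, which encodes thrombomodulin, had 35 and 94 counts, 2.77-fold higher (1.88 to 4.25). Both are low in these cells, and CCR7 reached 1 CPM only in the library where it is high, which favoured its call; of the 4 genes at 1 CPM in both libraries 1 was higher. Of 6 measured genes on the list of KLF4 and KLF6 targets, 1 was higher and 2 were lower (median -0.16). Over the 5 of them at 1 CPM in both libraries 1 was higher and 1 lower (median -0.11). PLAU, which encodes the urokinase plasminogen activator, had 186 and 21 counts, 8.34-fold lower (5.41 to 14.1), and reached 1 CPM in DMSO alone. CDKN1A, which encodes the cell cycle inhibitor p21, had 228 and 86 counts, 2.54-fold lower (1.98 to 3.31). CDKN1C, another cell cycle inhibitor, was 1.82-fold higher (1.53 to 2.18). Of 3 genes that KLF3 represses in other cells, 2 were measured, both at 1 CPM in DMSO alone, where they are high, which favoured a lower ratio (median log2 ratio -0.84). LGALS3 had 26 and 15 counts, and C1QTNF12, named after its values were seen, had 29 and 14 counts and was called lower, 1.96-fold (1.02 to 4.08). KLF8, the third, had 0 and 4 counts.

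**Figure D5:**
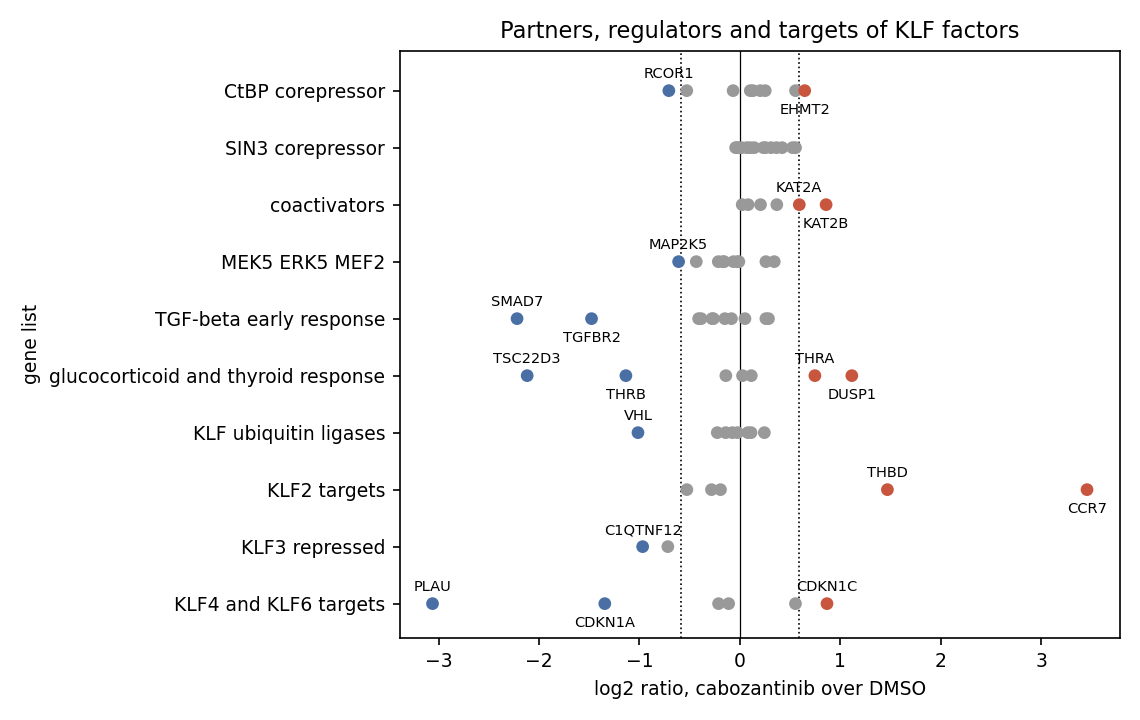
Log2 ratio of cabozantinib over DMSO for each measured gene of 10 lists of partners, regulators and targets of KLF factors, 1 list a line; red points were called higher, blue points lower and grey points neither, and dotted lines are 1.5-fold. The SIN3 list has no called gene, and PLAU and CCR7 lie farthest out on either side.

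On hg19 the nearest measured gene on each side of every member was examined, 20 neighbours in all. Of these, 1 was higher and 3 were lower by the 1.5-fold rule, beside 8.15% and 12.3% of all measured genes. KLF11, itself near no change, lies between GRHL1, 41.3 kb away and 1.74-fold lower, and RRM2, a subunit of ribonucleotide reductase, 67.7 kb away and 1.54-fold higher. TLR6, 122 kb from KLF3, was 2.26-fold lower, and CEMIP2, 1269 kb from KLF9, was 1.84-fold lower. The nearest measured neighbours of KLF6 lie 603 and 1041 kb away, and neither was called. None of the neighbours of KLF13 or KLF16 was called.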

How the data were processed

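RNA of 2 K562 cultures was sequenced from strand-specific TruSeq libraries, per the labels' protocols. Per the file headers, the authors aligned reads with Rsubread on hg19 and deposited raw counts for each Entrez gene. The builds named in the submitters' processing notes are hg19 and GRCh37. The count files are named for and laid out as featureCounts output; its version, strand setting and handling of multi-mapped reads are not stated there. The authors' deposited table gives a posterior score between 0 and 1 and a shrunken fold ratio per gene; its direction was read against the counts, and among 11445 genes with at least 100 counts 99.1% had the same sign. Its 4 columns of values without a sample label were not used.

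Scaling used TMM factors (edgeR 4.0.16, R 4.3.3), fitted on all 25702 genes (1.03 for DMSO, 0.971 for cabozantinib). Log2 ratios used a pseudocount of 0.5, and fold intervals are Clopper-Pearson intervals of the pair of counts at 95%. Ratios between genes within libraries have exact conditional intervals. Scripts were tested on simulated data. Members, 18 gene lists and motifs were chosen with earlier results of these data known. All members were named; per list up to 3 called genes each way with a mean of at least 1 CPM were named. Positions of counted genes are hg19; promoters are from RefSeq on GRCh38.p14, and no position was carried between the builds. Alternatives covered scaling (DESeq2 1.42.0 size factors, upper quartile, total counts), pseudocount, filter, size threshold, the deposited ratio and gene length (Python 3.11.15, scipy 1.17.1, statsmodels 0.14.6). With 1 library per group the depth sets counting precision only.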

Additional observations from a re-analysis of the deposited data

How the results depend on the processing

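The calls of KLF6, KLF9 and KLF13 at 1.5-fold were the same under scaling by total counts, DESeq2 size factors or the upper quartile, with a pseudocount of 5, with a filter of 5 CPM or none, with 1 CPM required in both libraries (added after seeing the data), with the authors' deposited ratio and with the length trend removed. All 3 genes had 16.2 CPM or more in both libraries, so the filters could not have removed these genes. The deposited ratio follows the same counts and is no separate support. With a size threshold of 2-fold 0 genes were higher and 1, KLF6, was lower. Over these alternatives the log2 ratio of KLF6 lay between -1.20 and -1.11, that of KLF9 between -0.69 and -0.61 and that of KLF13 between 0.63 and 0.72. The median of the measured members lay between 0.07 (total counts) and 0.16. Of the log2 ratios of single genes, only that of KLF3 under total counts, 0.20, left its counting interval. No paired analysis was possible because each group holds 1 library, and none could be left out. Counts of 16 or fewer for KLF2, KLF4 and KLF12 set the limit of what can be seen in those genes, and differences between cultures or library preparations cannot be told apart from the treatment.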
